A study of Homo sapiens with 60 samples.

Results

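Yijung-tang is a decoction of several herbs used in Korean medicine for disorders of digestion. Its hot-water extract was applied for 24 h to HT29, a human colorectal adenocarcinoma line, and RNA was sequenced. The comparison described is that of the high dose (500 µg/mL) with the low dose (20 µg/mL), with 3 libraries each, which makes 6 of the 60 libraries labelled in the series, and all genes are its features. The libraries were taken by their labels, without use of measured values, but the comparison was chosen with earlier results of these data known. A medium dose of Yijung-tang (100 µg/mL), a second formula called Banhasasim-tang and 4 single-herb extracts (processed aconite root, bupleurum root, cimicifuga rhizome and citrus peel), each at the same 3 doses, serve only to place the result. Vehicle was 0.1% DMSO per the sample labels and 2% per the design text. The design text adds that extracts toxic to the cells got a lower top dose, while the labels give 500 µg/mL here. Nothing in the labels ties replicates to separate cultures, and the spread that the p-values measure may therefore be technical. A culture of this kind holds 1 tumour line, without the mucus, microbes, blood or liver that an ingested decoction meets.

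Microtubules are polymers of alpha and beta tubulin, and cells keep the amount of both in a narrow range. When unpolymerised tubulin is abundant, the factor TTC5 binds the first residues of tubulin chains as they leave the ribosome, and the tubulin mRNAs are degraded; when it is scarce, these mRNAs last longer. Plant compounds also act on sensors of foreign chemicals. NRF2, released from its inhibitor KEAP1 by electrophiles and oxidants, switches on aldo-keto reductases, glutathione synthesis and quinone reduction, while the aryl hydrocarbon receptor, bound by planar aromatic molecules, switches on cytochromes of the CYP1 family, UGT1A6 and ALDH3A1. In the gut lining both systems are part of the first contact with food and medicines.

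The 9 Yijung-tang libraries held 12.1 to 21.13 M counts, with replicate 3 the shallowest at each dose. Reads of the mitochondrial genome made up 10.3%, 8.87% and 8.2% of counts in the high-dose libraries, against 8.13%, 8.03% and 7.96% at the low dose. The 9 markers of colon epithelium were all present, led by keratins. KRT8 had 5378, 5386 and 5295 CPM at the high dose and 5756, 5909 and 5489 CPM at the low dose. None (0) of the 9 passed the test between doses, where 0.103% of all genes did. For 3 of the 9, all high-dose libraries were below all low-dose libraries, against 7.77% of all genes. They were all above for 0, against 8.13%, and the median log2 fold change of the 9 was -0.07. CPM are counts per M, scaled between libraries. Of 24 markers of leukocytes, stroma, blood, liver and nerve, 9 were high enough to test. None (0) of these 9 was called, which is near the share of 0.103% over all genes. Among them LYZ, or lysozyme, had 1885, 1803 and 1632 CPM at the high dose and 1674, 1713 and 1731 CPM at the low dose. Across all 57 libraries in the fit, depth ran from 10.35 to 40.05 M. Each pair of Yijung-tang replicates differed by more than sampling noise (chi-square per degree of freedom from 2.17 to 6.26).

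At the high dose against the low dose, alpha and beta tubulin mRNAs, 3 genes of aldehyde and ketone reduction or oxidation (AKR1C2, AKR1B10 and ALDH3A1) and the glucuronidation enzyme gene UGT1A6 rose by modest amounts, and 3 genes fell. Of 16484 genes tested, 17 were called at an adjusted p under 0.05 (0.103%; edgeR quasi-likelihood test with Benjamini-Hochberg adjustment), 14 higher (0.0849%) and 3 lower (0.0182%). At an unadjusted p under 0.05 there were 528 higher and 431 lower genes (3.2% and 2.61% of those tested). Among the 14 that rose, 5 were alpha or beta tubulins, which are given first because they form the largest family among the calls. The count rested on single libraries. It was 7, 31 and 4 without high-dose library 1, 2 and 3, and 10, 4 and 4 without low-dose library 1, 2 and 3. It was 31 in DESeq2, 4 when the 18 libraries of Yijung-tang and Banhasasim-tang were fitted alone, and 114 when 4 libraries of other groups that stood far from their own group were left out. Without a filter on low counts it was 180, with the compared groups alone 49, and with the 9 Yijung-tang libraries 29. TUBB, TUBA4A, TUBA1B and AKR1C2 were called in each of the 6 fits without 1 library of the compared groups. No gene (0), these included, was called without replicate 1 or without replicate 3 of every group. The highest edgeR adjusted p was then 0.25 for TUBB, 0.254 for TUBA4A, 0.407 for TUBA1B and 0.426 for AKR1C2.

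**Figure D1:**
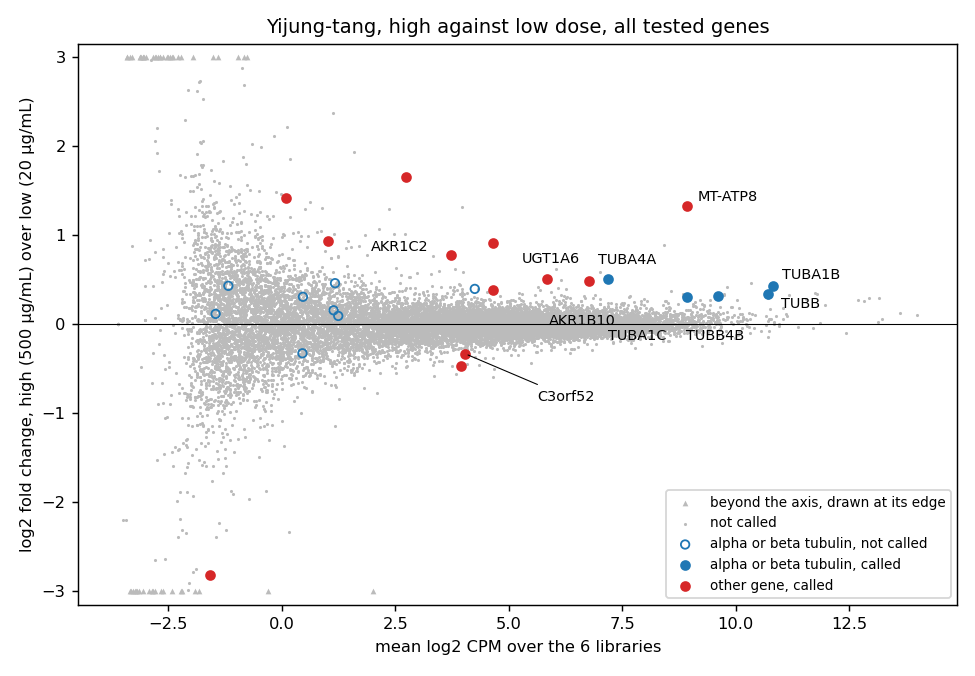
Log2 fold change of high over low dose (vertical) against mean log2 CPM over the 6 libraries (horizontal) for each of the 16484 genes tested. The called alpha and beta tubulins (filled blue) lie between 0.31 and 0.51, and 31 genes above 3 and 21 below -3 are drawn at the edge, 0 of them called.

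The opening codons of the tubulin genes are shown because TTC5 reads the peptide they encode. The lines give the first 30 bases of each coding sequence in GENCODE release 29 on GRCh38, 5′ to 3′, with the first 4 codons in capitals. The first 5 genes are those called in this comparison, and TUBB2A is the nearest to the threshold among the others. Gamma tubulin TUBG1, which seeds microtubules and is not part of the alpha-beta dimer, stands last.
TUBB: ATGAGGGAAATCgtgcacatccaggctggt
TUBB4B: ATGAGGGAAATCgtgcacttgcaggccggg
TUBA1B: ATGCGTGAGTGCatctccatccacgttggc
TUBA1C: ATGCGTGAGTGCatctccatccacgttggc
TUBA4A: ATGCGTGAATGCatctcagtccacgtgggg
TUBB2A: ATGCGCGAGATCgtgcacatccaggcgggc
TUBG1: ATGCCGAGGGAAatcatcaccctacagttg
TUBB and TUBB4B share their first 4 codons, and TUBA1B and TUBA1C share all 30 bases. In terms of letters, the coding sequences of all 13 alpha and beta tubulins tested begin with ATGNGNGAN, on the sense strand, as do those of 369 of 19580 protein-coding genes (1.88%). Of the 239 such genes that were tested, 5 were called higher (0.0849% of all genes were) and none (0) lower. Those 5 are the tubulins above, from which the letters were taken, so nothing is read from this count. None (0) of the 226 that are not tubulins was called. These letters are a description of the reading frames and show nothing about binding.

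TUBB (chromosome 6, 30720201 to 30725426, plus strand), the main beta tubulin of proliferating cells, had 1925, 1888 and 1892 CPM in the high-dose libraries, against 1541, 1483 and 1478 CPM in the low-dose libraries. All 3 high-dose libraries were above all 3 low-dose libraries and close together. Its log2 fold change was 0.34 ± 0.05 (SE, edgeR adjusted p = 0.000102), the smallest p of the comparison. The medium dose lay between the doses with 1669, 1637 and 1592 CPM. TUBB4B (chromosome 9, 137241213 to 137243707, plus strand), a second widely expressed beta tubulin, had 897, 868 and 874 CPM at the high dose and 745, 699 and 676 CPM at the low dose. It rose by 0.32 ± 0.06 (adjusted p = 0.0216), and its call was lost without high-dose library 1 or 3 or low-dose library 2 or 3 (highest adjusted p = 0.237).

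Among alpha tubulins, TUBA1B (chromosome 12, 49127782 to 49131397, minus strand), the main one of dividing cells, had 2267, 2033 and 1983 CPM at the high dose, against 1603, 1524 and 1534 CPM at the low dose. It rose by 0.43 ± 0.06 (adjusted p = 0.0002). TUBA4A (chromosome 2, 219249711 to 219278170, minus strand), whose product lacks the encoded C-terminal tyrosine of other alpha tubulins, had 189, 178 and 160 CPM at the high dose and 129, 123 and 117 CPM at the low dose. These groups did not overlap, and the log2 fold change of 0.51 ± 0.07 (adjusted p = 0.000106) was the largest among the called tubulins. TUBA1C (chromosome 12, 49188736 to 49274603, plus strand) had 581, 539 and 511 CPM at the high dose and 444, 420 and 449 CPM at the low dose, with a log2 fold change of 0.31 ± 0.07 (adjusted p = 0.0392). Its call was lost in each of the 6 fits without 1 library (adjusted p from 0.0556 to 0.604). Reads of TUBA1A, TUBA1B and TUBA1C are hard to part. Their sum had 2861, 2583 and 2498 CPM at the high dose and 2047, 1947 and 1984 CPM at the low dose, and rose by 0.41 ± 0.07 (adjusted p = 0.00113).

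**Figure D2:**
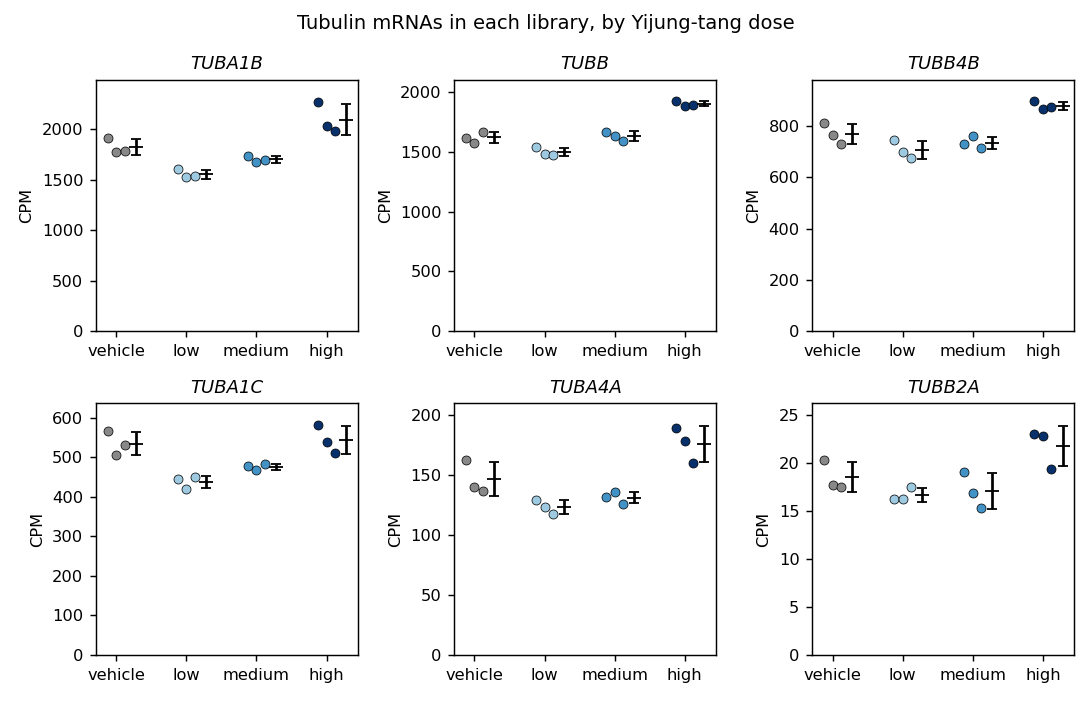
CPM of 6 tubulin mRNAs in each library (points) with the mean and SD of 3 libraries (bars) for vehicle and the low, medium and high dose. In all 6 panels the 3 high-dose libraries lie above the 3 low-dose libraries, and for TUBB the vehicle libraries (1578 to 1670 CPM) lie between them.

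The grouping as a family was made after the values were seen, so it has no test of its own. Of 13 alpha and beta tubulins tested, 5 were called higher and 0 lower, and 7 had all high-dose libraries above all low-dose libraries, against 8.13% of all genes. TUBB2B was the 1 with the groups apart in the other direction (7.77% of all genes), at levels near 1 CPM. The median log2 fold change of the 13 was 0.32, beside -0.001 over all genes. TUBB2A had 23.0, 22.8 and 19.4 CPM at the high dose and 16.2, 16.3 and 17.5 CPM at the low dose, with a log2 fold change of 0.40 ± 0.10 that did not pass (adjusted p = 0.128). The remaining 7, all expressed at low levels, had log2 fold changes from -0.32 (TUBB2B) to 0.46 (TUBA1A), with adjusted p of 0.812 or more.

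No listed gene of other parts of the microtubule and actin systems was called. As 0.103% of all genes were called, a count of 0 in lists of this size is near that share. Of 9 genes of gamma tubulin and its complex, which nucleate microtubules, and of delta and epsilon tubulin, which act in centrioles, none (0) was called, with a median of 0.05. TUBG1 had 92.1, 96.1 and 94.4 CPM at the high dose and 89.9, 87.9 and 89.0 CPM at the low dose, a log2 fold change of 0.08 ± 0.08 (adjusted p = 0.981). TTC5 itself had 10.9, 10.99 and 9.81 CPM at the high dose and 11.4, 10.2 and 12.1 CPM at the low dose (-0.07 ± 0.11, adjusted p = 0.988). None (0) of 20 tubulin folding cofactors, prefoldins and related factors was called, nor any (0) of 19 microtubule-associated proteins, among them STMN1, which sequesters tubulin dimers (0.09 ± 0.11). All high-dose libraries were above all low-dose libraries for 6 of the 20, 0 of the 19 and 2 of the 9, against 8.13% of all genes. They were all below for 0, 2 and 1, against 7.77%. Beta actin, ACTB, had a log2 fold change of 0.01 ± 0.08.

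Whether the tubulin change belongs to Yijung-tang more than to the other extracts was tested as a difference between differences. This test holds the same Yijung-tang difference by which the tubulins were chosen. The excess of the tubulins is therefore not independent of that choice. Against the mean high-minus-low difference of the 5 other extracts, 9 genes were called (0.0546%), 6 higher (0.0364%) and 3 lower (0.0182%), with 798 (4.84%) at an unadjusted p under 0.05, and 2 of the higher ones were tubulins. The excess was 0.29 ± 0.05 for TUBB (adjusted p = 0.00412) and 0.34 ± 0.07 for TUBA1B (adjusted p = 0.0415), both log2. The sum of TUBA1A, TUBA1B and TUBA1C did not pass for this excess (0.31 ± 0.07, adjusted p = 0.111). TUBA4A (0.29, adjusted p = 0.265), TUBB4B (0.26, adjusted p = 0.225) and TUBA1C (0.21, adjusted p = 0.672) did not pass. Without the aconite extract in the mean, TUBB was the 1 gene called (0.29, adjusted p = 0.0334), while TUBA1B stood at 0.34 (adjusted p = 0.174). The call on the TUBB excess was lost without low-dose library 2 or 3 (highest adjusted p = 0.0608), and that on TUBA1B held in 1 of the 6 fits without 1 library, that without high-dose library 2.

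Banhasasim-tang is the other formula, and its sample codes begin with the same number as those of Yijung-tang. The labels do not say what that number means, and the titles give 1 batch for all 60 libraries. No gene (0 of 16484, 0%) differed between the formulas in this way in edgeR, although 1062 did at an unadjusted p under 0.05 (6.44%) and 3 did in DESeq2. TUBB had 1604, 1551 and 1543 CPM at the high dose and 1493, 1448 and 1500 CPM at the low dose of Banhasasim-tang, a log2 fold change of 0.08 against 0.34 with Yijung-tang. The difference of 0.26 had an unadjusted p of 0.000345 and an adjusted p of 0.469. TUBA4A rose with Banhasasim-tang as well (0.32, adjusted p = 0.045) and with aconite (0.26, adjusted p = 0.012), as did TUBA1C with aconite (0.20, adjusted p = 0.047). No tubulin of the 6 plotted was called between doses of bupleurum, cimicifuga or citrus peel.

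**Figure D3:**
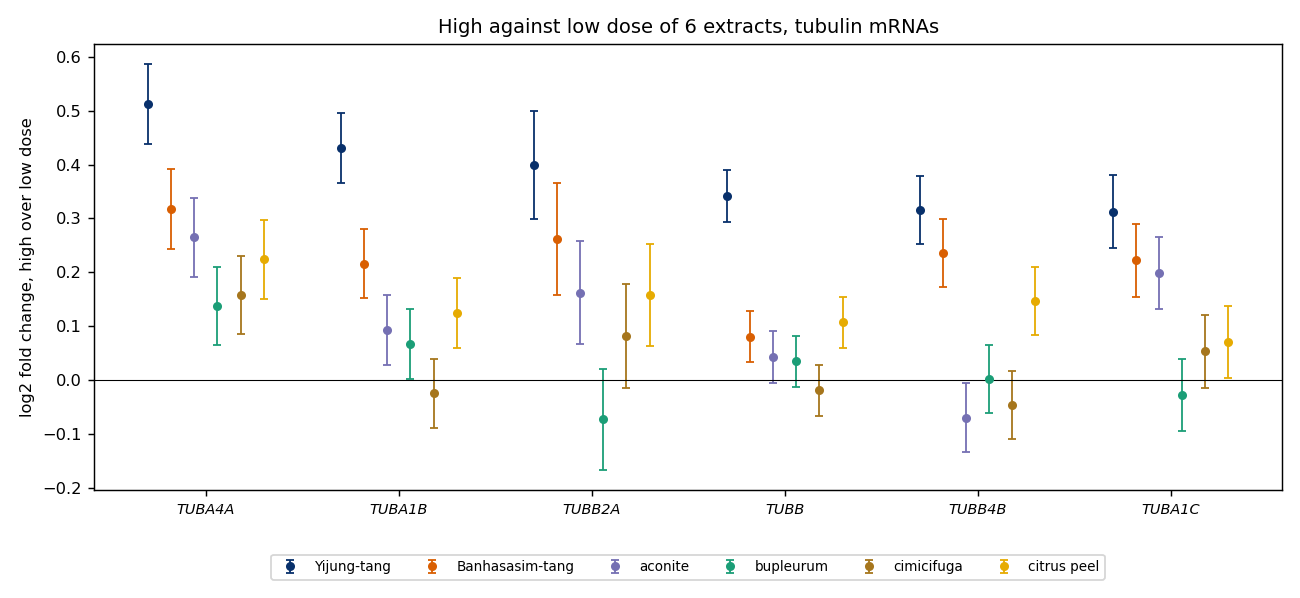
Log2 fold change of high over low dose (points, with SE bars) of 6 tubulin genes for 6 extracts. Yijung-tang (dark blue) has the highest estimate for each of the 6 genes, from 0.31 for TUBA1C to 0.51 for TUBA4A. The genes were chosen by their values in this same Yijung-tang comparison, which favours its rank, so nothing is read from the rank. The edgeR test of the excess over the mean of the others passed for TUBB and TUBA1B but not for TUBA4A, TUBB4B, TUBA1C or TUBB2A. That test uses the same Yijung-tang libraries and is not independent of the choice of genes. It did not pass for the sum of TUBA1A, TUBA1B and TUBA1C (adjusted p = 0.111).

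Genes of the response to electrophiles also rose. AKR1C2, an aldo-keto reductase that reduces ketosteroids and reactive carbonyls, had 17.5, 17.2 and 17.1 CPM in the high-dose libraries, against 10.7, 10.0 and 9.31 CPM in the low-dose libraries. The groups stood well apart, with a log2 fold change of 0.78 ± 0.13 (edgeR adjusted p = 0.000789). AKR1B10, which reduces retinal and lipid aldehydes in the gut, had 125, 124 and 137 CPM at the high dose and 92.6, 91.3 and 91.0 CPM at the low dose, a rise of 0.48 ± 0.09 (adjusted p = 0.00841). That call was lost without high-dose library 3 or low-dose library 2 or 3 (highest adjusted p = 0.0989). AKR1C1 (0.59 ± 0.14, adjusted p = 0.095) and AKR1C3 (0.50 ± 0.15, adjusted p = 0.32) did not pass. Both are related genes, and the estimated counts may divide reads between them and AKR1C2. The sum of the 3 genes, most of which is not AKR1C2, had 131, 122 and 112 CPM at the high dose. At the low dose it had 88.3, 81.3 and 79.0 CPM. It gave 0.55 ± 0.14 and did not pass (adjusted p = 0.133). The part that the division of those reads had in the call on AKR1C2 was not tested.

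All 28 NRF2 targets listed were tested, and 2 of them (AKR1C2 and AKR1B10) were called higher and 0 lower, against 0.0849% and 0.0182% of all genes. A further 16 had an unadjusted p under 0.05 in the higher direction, which makes 18 of 28 against 3.2% of all genes, and 18 had non-overlapping groups with the high dose above, against 8.13%. The list median was 0.17. HMOX1, which degrades heme, had 12.7, 11.2 and 10.5 CPM at the high dose and 8.93, 8.45 and 8.15 CPM at the low dose, a log2 fold change of 0.43 ± 0.10 just outside the threshold (adjusted p = 0.0593). It passed in 4 of 10 other settings, DESeq2 among them. GCLM and GCLC, the subunits of the enzyme that starts glutathione synthesis, stood at 0.28 ± 0.08 (adjusted p = 0.223) and 0.17 ± 0.05 (adjusted p = 0.343). NQO1, a quinone reductase, had 596, 624 and 568 CPM at the high dose and 515, 503 and 486 CPM at the low dose (0.25 ± 0.09, adjusted p = 0.639). SLC7A11, the cystine importer, had overlapping groups (0.08 ± 0.09), as had KEAP1, the inhibitor of NRF2 (0.01 ± 0.08), and the mRNA of NRF2 itself, NFE2L2 (0.02 ± 0.05).

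**Figure D4:**
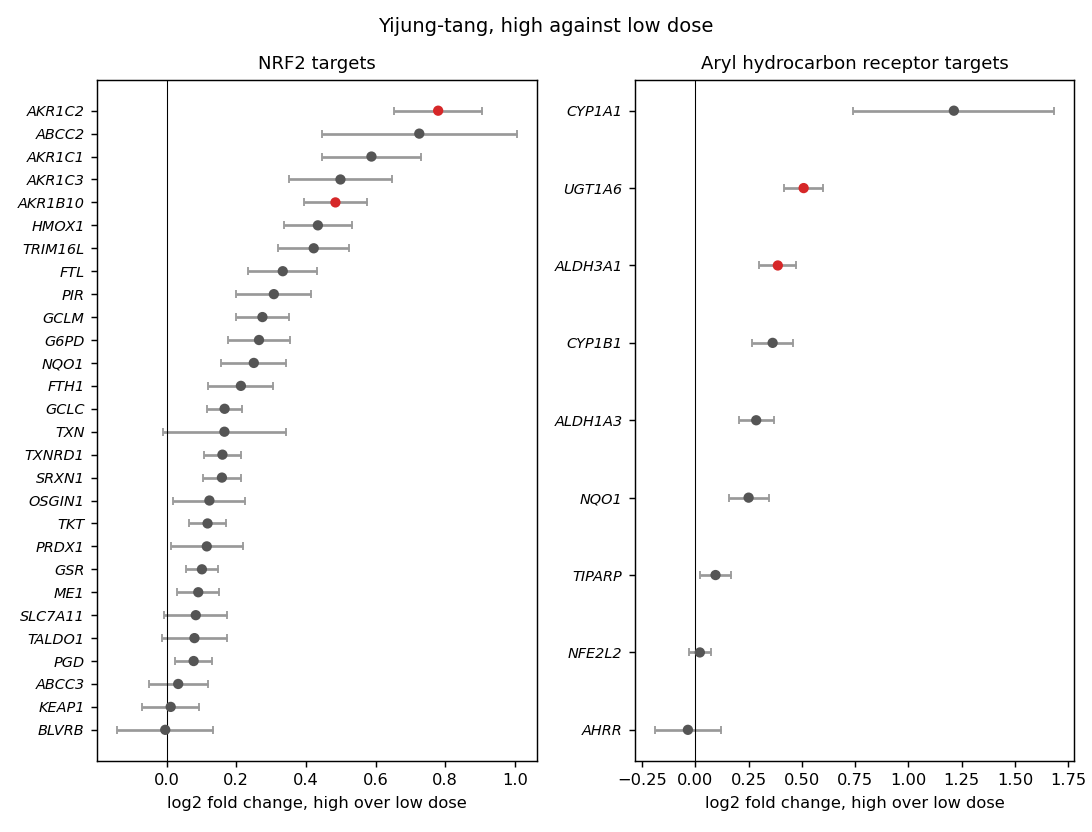
Log2 fold change of high over low dose (points, with SE bars) of the listed NRF2 targets (left) and aryl hydrocarbon receptor targets (right) that were tested, called genes in red. Of 28 NRF2 targets 27 lie above 0, and AKR1C2, AKR1B10, UGT1A6 and ALDH3A1 are the called ones.

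Among targets of the aryl hydrocarbon receptor, 9 of 11 were tested and 2 were called higher, UGT1A6 and ALDH3A1, against 0.0849% of all genes. UGT1A6, which joins glucuronic acid to phenols, had 67.6, 64.8 and 73.5 CPM at the high dose and 53.5, 45.7 and 44.9 CPM at the low dose, a rise of 0.51 ± 0.09 (adjusted p = 0.00413). Its call, too, was lost without high-dose library 3 or low-dose library 2 or 3 (highest adjusted p = 0.0928). ALDH3A1, which oxidises aromatic aldehydes, had 29.3, 27.7 and 29.8 CPM against 22.2, 22.6 and 21.3 CPM. It was at the limit of the test (0.39 ± 0.09, adjusted p = 0.0498) and lost its call in each of the 6 fits without 1 library (adjusted p from 0.0518 to 0.495). CYP1A1, the most inducible gene of this receptor, was scarce, with 0.712, 1.13 and 1.54 CPM at the high dose and 0.430, 0.491 and 0.466 CPM at the low dose. Its log2 fold change of 1.21 ± 0.47 did not pass (adjusted p = 0.703). CYP1B1, a related cytochrome, had 71.3, 68.0 and 68.3 CPM against 51.7, 50.1 and 60.1 CPM (0.36 ± 0.10, adjusted p = 0.171), while the receptor's repressor AHRR did not differ beyond its spread (-0.03 ± 0.15). The list median was 0.29, and 6 of 9 had non-overlapping groups with the high dose above, against 8.13% of all genes. In the wider list of xenobiotic metabolism and efflux, 18 of 22 were tested and UGT1A6 was the 1 called.

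UGT1A6 is 1 of several UGT1A genes that have their own first exon and share the others. This family was chosen after the values were seen. Of 7 such genes tested, 4 had all high-dose libraries above all low-dose libraries, against 8.13% of all genes. For 0 they were all below, against 7.77%. UGT1A6 was the 1 called of the 7, where 0.0849% of all genes were called higher. UGT1A8 followed with 79.2, 76.5 and 79.8 CPM at the high dose and 66.6, 54.1 and 56.8 CPM at the low dose (0.40 ± 0.10, adjusted p = 0.0749). All UGT1A counts summed gave 600, 612 and 602 CPM at the high dose and 522, 500 and 501 CPM at the low dose, a log2 fold change of 0.25 ± 0.06 that did not pass (adjusted p = 0.111). The 250 bases before each of the start sites of UGT1A6 in RefSeq (GRCh38.p14, plus strand) are printed because among called genes of both lists with a window, AKR1C2 held neither motif searched and UGT1A6 held both. Capitals mark GCGTG, the core bound by the aryl hydrocarbon receptor, in the first, and TGACNNNGC, the core bound by NRF2, in the second.
UGT1A6 upstream start, chr2:233691452-233691701: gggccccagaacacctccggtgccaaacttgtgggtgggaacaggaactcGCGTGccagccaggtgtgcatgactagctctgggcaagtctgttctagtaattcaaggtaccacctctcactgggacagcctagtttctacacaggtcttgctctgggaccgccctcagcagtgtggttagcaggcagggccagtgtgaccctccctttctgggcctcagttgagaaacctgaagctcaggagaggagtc
UGT1A6 downstream start, chr2:233692640-233692889: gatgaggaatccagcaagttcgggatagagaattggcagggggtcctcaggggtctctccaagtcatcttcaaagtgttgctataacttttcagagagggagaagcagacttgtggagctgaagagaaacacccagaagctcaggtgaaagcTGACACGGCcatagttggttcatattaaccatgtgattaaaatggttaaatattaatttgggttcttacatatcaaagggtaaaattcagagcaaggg
Both strands were searched. GCGTG occurs in 32.2% of 35116 promoter windows of this length and TGACNNNGC in 10.9%, so such matches are common and describe letters, not sites in use. Among listed NRF2 targets with a window, 5 of 19 held TGACNNNGC (26.3%), and 10 of 19 held GCGTG (52.6%). Among listed aryl hydrocarbon receptor targets 6 of 9 held GCGTG (66.7%) and 1 of 9 held TGACNNNGC (11.1%). These list counts are per gene, with a match in any of its windows, while the shares over all promoters are per window. A gene with several windows has more chances to match, so the list shares cannot be set against those over all windows.

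The same detoxification genes differed between doses of 4 of the 5 other extracts. In high against low dose of aconite, AKR1C2, AKR1B10 and ALDH3A1 had log2 fold changes of 1.35, 1.18 and 1.47, and of cimicifuga 1.27, 0.92 and 1.17, each called in those comparisons. Banhasasim-tang gave 0.77, 0.54 and 0.58 for the same genes, and bupleurum 0.81, 0.78 and 0.92, also called. With citrus peel the values were 0.12, 0.23 and 0.28, and none (0) was called (adjusted p = 1, 0.671 and 0.322). The rise of ALDH3A1 with Yijung-tang was smaller than the mean of the other 5 extracts by 0.50 ± 0.09 on the log2 scale (difference -0.50, adjusted p = 0.0102, called in 2 of the 6 fits without 1 library), and this was -0.35 without aconite in the mean (adjusted p = 0.615). For AKR1C2 (-0.08), AKR1B10 (-0.25) and UGT1A6 (0.08) the difference from the other extracts did not pass. UGT1A6 had a log2 fold change of 0.05 with Banhasasim-tang, and the difference of 0.46 between the formulas had an adjusted p of 0.514.

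A call of another kind came from the mitochondrial genome, a small circle that encodes 13 proteins of the respiratory chain and ATP synthase and 2 ribosomal RNAs. MT-ATP8, a subunit of ATP synthase, had 1190, 414 and 812 CPM in the high-dose libraries and 327, 284 and 351 CPM in the low-dose libraries. High-dose library 1 was far above library 2, and the share of mitochondrial reads was also highest in library 1 (10.3%); the part of this share in the result was not tested. The log2 fold change was 1.33 ± 0.26 (adjusted p = 0.0162) and ran from 0.94 to 1.65 over all settings. Of the 6 fits without 1 library, 1 called it, that without high-dose library 2, and the adjusted p in the others ran from 0.0677 to 0.604, the highest without high-dose library 1. The excess over the mean of the 5 other extracts was 1.44 ± 0.28 (adjusted p = 0.0155), also called in 1 of the 6, and 0.59 (adjusted p = 0.605) for the sum with MT-ATP6. MT-ATP8 overlaps MT-ATP6 (8777, 7046 and 6293 CPM against 5750, 6258 and 6218 CPM), and the sum of both did not pass (0.36 ± 0.18, adjusted p = 0.87).

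All 15 mitochondrial genes had log2 fold changes above 0, with a median of 0.30, and 9 had non-overlapping groups with the high dose above (8.13% of all genes had), but MT-ATP8 was the 1 called (0.0849% of all genes were called higher). MT-ND6, the mRNA on the other strand of the circle, had 628, 333 and 461 CPM at the high dose and 261, 259 and 244 CPM at the low dose (0.90 ± 0.28, adjusted p = 0.417). MT-CO1, a subunit of cytochrome oxidase, had overlapping groups (0.11 ± 0.11), and the ribosomal RNAs MT-RNR1 and MT-RNR2 stood at 0.03 ± 0.10 and 0.02 ± 0.09. MTND4P12, a copy of MT-ND4 on chromosome 5 (134926660 to 134928036), was called with 20.6, 5.82 and 10.9 CPM against 4.06, 3.83 and 4.04 CPM (1.66 ± 0.36, adjusted p = 0.0479). Its high-dose libraries had the same order as those of MT-ATP8, without high-dose library 1 it stood at 1.03 (adjusted p = 1), and summed with MT-ND4 it gave 0.30 ± 0.16 (adjusted p = 0.896). The vehicle libraries also ranged widely for MT-ATP8, with 899, 534 and 365 CPM.

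**Figure D5:**
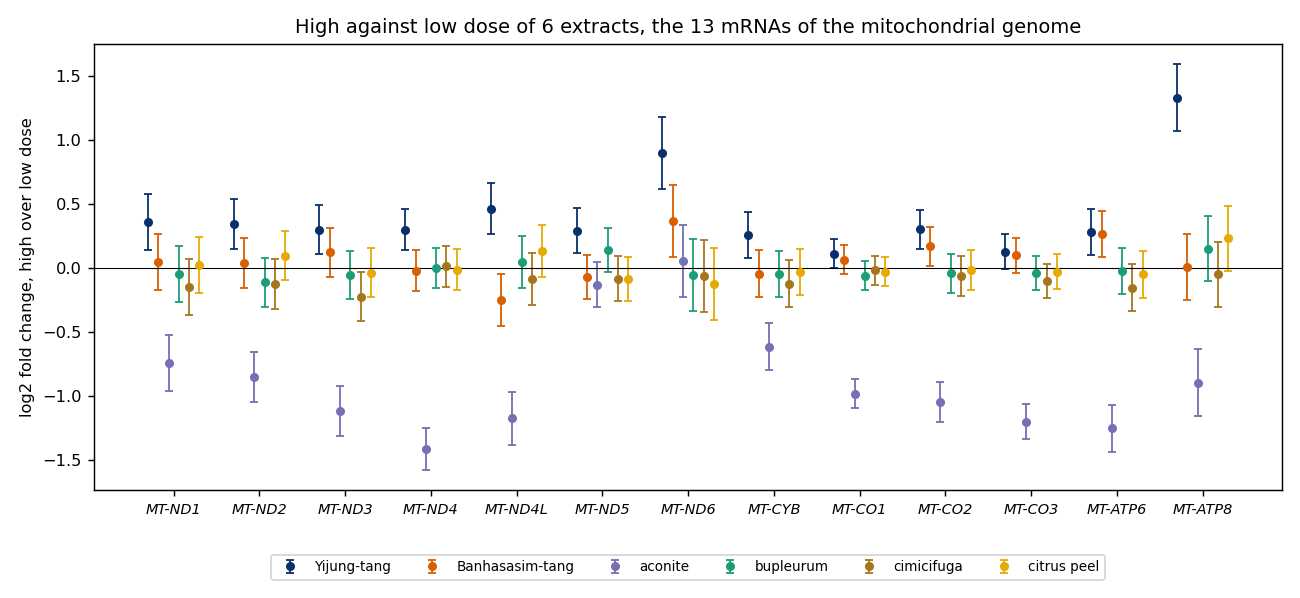
Log2 fold change of high over low dose (points, with SE bars) of the 13 mitochondrial mRNAs for 6 extracts. Yijung-tang (dark blue) lies above 0 for each, from 0.11 for MT-CO1 to 1.33 for MT-ATP8, and all aconite values (violet) but that of MT-ND6 lie below 0.

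Of the genes that fell, C3orf52, a transmembrane protein, had 12.7, 15.7 and 15.3 CPM at the high dose and 18.6, 17.8 and 18.3 CPM at the low dose. The groups did not overlap, and it fell by 0.33 on the log2 scale (SE 0.07, edgeR adjusted p = 0.0238). Of the 6 fits without 1 library, 1 called it, with the highest adjusted p (0.965) without high-dose library 1, and the call was also lost in the fit of the 9 Yijung-tang libraries (adjusted p = 0.16). ENSG00000279018, which also fell, was named after its values were seen and lay below 1 CPM in each of the 6 libraries (-2.81 ± 0.61, adjusted p = 0.0392). It was called in 1 of the 6 fits without 1 library, that without high-dose library 1, where it stood at -4.30.

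The 4 further calls are named after their values were seen, as they lie outside the rule for named genes. TCEAL3, of a family related to a transcription elongation factor, had 1.63, 1.63 and 1.78 CPM at the high dose and 0.573, 0.835 and 0.388 CPM at the low dose (1.42 ± 0.31, adjusted p = 0.0479). SLC9A3R1-AS1, an antisense transcript, had 42.4, 19.9 and 44.9 CPM against 19.1, 18.5 and 18.6 CPM (0.92 ± 0.19, adjusted p = 0.0388), so library 2 lay near the low dose. The kit was directional, but whether the counting used strand is not given in the sources used here. It is therefore not known whether its reads were kept apart from those of the gene on the opposite strand. YBX1P10, a pseudogene of YBX1, had 3.10, 2.17 and 2.84 CPM against 1.15, 1.67 and 1.40 CPM and stood at 0.94 ± 0.21 (adjusted p = 0.0498). MTND4P12, described above, is the other one. Of the 6 fits without 1 library, none (0) called TCEAL3 (adjusted p from 0.0658 to 0.338), and 1 called each of SLC9A3R1-AS1, YBX1P10 and MTND4P12, that without high-dose library 2.

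Of the 40 lists, 36 held no called gene, where 0.103% of all genes were called. The lists described next are examples, and others also exceeded the shares over all genes. Of 19 heat shock proteins, 7 had non-overlapping groups with the high dose above, with a median of 0.09. So had 10 of 36 nuclear genes of the respiratory chain and ATP synthase, with a median of 0.08. For 31 genes of DNA replication, 10 had non-overlapping groups with the high dose above, against 8.13% of all genes, with a median of 0.07 and UHRF1, which copies DNA methylation marks, at 0.13 ± 0.04 (adjusted p = 0.47). Of 25 ribosome biogenesis genes, 7 had non-overlapping groups above, led by NCL, or nucleolin, with 1064, 984 and 1026 CPM at the high dose and 957, 905 and 832 CPM at the low dose (0.19 ± 0.05, adjusted p = 0.159). Of 73 cytosolic ribosomal proteins 22 had, with a median of 0.11. Their level also varied between libraries within groups, in the high-dose group by medians from -0.06 to 0.04 and in the low-dose group from -0.06 to 0.09 around the group mean. In the other direction, 8 of 36 interferon-stimulated genes and 7 of 25 SREBP2 targets of cholesterol synthesis had the high dose below the low dose without overlap, against 7.77% of all genes, with medians of -0.13 and -0.08. IFIT2, an interferon-induced protein that binds viral RNA, had 3.31, 4.19 and 3.16 CPM at the high dose and 4.63, 3.88 and 6.36 CPM at the low dose (-0.43 ± 0.16, adjusted p = 0.629). VIL1, the brush border protein villin, had 164, 177 and 169 CPM against 185, 187 and 189 CPM (-0.14 ± 0.04, adjusted p = 0.411).

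The steps between adjoining doses were also tested. High against medium dose gave 3 calls, all higher (0.0182%), namely AKR1C2 (0.76, adjusted p = 0.00634), TUBA4A (0.42, adjusted p = 0.00634) and ALDH3A1 (0.45, adjusted p = 0.0268). This comparison and that of high with low dose share the high-dose libraries. AKR1C2 had 8.86, 11.01 and 11.1 CPM at the medium dose and TUBA4A 132, 135 and 126 CPM, close to their low-dose levels above. At an unadjusted p under 0.05 there were 782 genes (4.74%). Medium against low dose gave no call in edgeR (0 of 16484, 0%) or DESeq2 (0), with 460 genes at an unadjusted p under 0.05 (2.79%). TUBB stood at 0.22 (adjusted p = 0.108) in high against medium and at 0.12 (adjusted p = 1) in medium against low dose. The count of 3 was 0 without high-dose library 1 or medium-dose library 1, 1 without medium-dose library 3, 13 without high-dose library 2, and 8 in DESeq2.

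Vehicle libraries have the same batch in their titles as Yijung-tang but sample codes that begin otherwise, and the labels do not say what these codes mean. Their levels stand here as values, and no test was made. TUBB had 1618, 1578 and 1670 CPM and TUBA1B 1910, 1776 and 1785 CPM in vehicle, between the low-dose and the high-dose levels. AKR1C2, with 10.8, 9.43 and 10.8 CPM in vehicle, was near its low-dose level, and so was ALDH3A1 with 23.5, 22.2 and 21.4 CPM.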

How the data were processed

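The authors deposited 1 table of estimated counts (RSEM expected counts) per gene, with 60675 genes and 270 columns, of which 60 matched the labels of samples described here and 210 were not used; 8.68% of values were not whole and were rounded. Per the submitters' processing notes, reads went through RSEM 1.3.3, STAR 2.7.3a, Trim Galore 0.6.5 and FastQC 0.11.9 (named there without roles) with genome GRCh38 (hg38). Which annotation and which counting options were used is not given in the sources used here. Per the labels' protocols, RNA had an integrity number above 7 and libraries were made from 1 µg with a directional kit and read as 100 bp pairs.

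Counts of 57 libraries in 19 groups were filtered with filterByExpr, scaled by TMM and fitted in edgeR 4.0.16 (R 4.3.3) with 1 mean per group. Quasi-likelihood tests were made for 5 comparisons, with Benjamini-Hochberg adjustment within each over 16484 genes and a threshold of 0.05. SE is the log2 fold change divided by the root of its F statistic. Library sets are groups of libraries whose sample codes begin alike, a reading that the labels do not define. The Bojungikgi-tang libraries of the series, 1 per dose, were not tested. The comparison and the gene lists were chosen with earlier results of these data known. Genes are named by a rule: up to 15 rises and 15 falls that passed, averaged log2 CPM of 1 or more, did not overlap and were no antisense RNA, pseudogene, clone or bare identifier (5 and 5 in other comparisons), up to 4 members of each of 40 lists by p, markers, and CYP1A1, CYP1B1, HMOX1 and NQO1. Alternatives were DESeq2 1.42.0, other size factors, filters, groups in the fit, a replicate block, summed related or overlapping genes and leaving out libraries. Scripts were tested on simulated data. Of the called genes, 1 is not reported here.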

Additional observations from a re-analysis of the deposited data

Results flagged for a closer look

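In all, 9 genes had a high-minus-low difference with Yijung-tang that departed from the mean of the same difference over citrus peel, cimicifuga, bupleurum, aconite and Banhasasim-tang, by edgeR's test of that difference. Departures are log2 and positive where Yijung-tang is higher. TUBB (0.29, adjusted p = 0.00412) and TUBA1B (0.34, adjusted p = 0.0415) are described in the report, as are MT-ATP8 (1.44, adjusted p = 0.0155) and ALDH3A1 (-0.50, adjusted p = 0.0102). Of the 6 fits without 1 library of Yijung-tang high or low dose, 4 called TUBB, 1 TUBA1B, 1 MT-ATP8 and 2 ALDH3A1.

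For 4 of the others, the departure came with a change in other extracts rather than with Yijung-tang. The ribosomal RNAs of the mitochondrion, MT-RNR1 (-1.02, adjusted p = 4.02e-07) and MT-RNR2 (-0.68, adjusted p = 9.81e-05), had log2 fold changes of 0.03 and 0.02 with Yijung-tang and of 4.78 and 3.40 with aconite. NOX1, an NADPH oxidase of the colon, departed by 0.44 (adjusted p = 0.00122). Its log2 fold change was -0.03 with Yijung-tang, which had 18.3, 18.7 and 16.9 CPM at the high dose and 18.3, 17.1 and 20.1 CPM at the low dose. It was -1.19 with aconite, -0.36 with cimicifuga and -0.35 with bupleurum, each called. With citrus peel (-0.27) and Banhasasim-tang (-0.20) it was not called. CRYZL2P departed by 0.28 (adjusted p = 0.0155), with 0.08 for Yijung-tang and -0.49 for aconite. TRIM31, a ubiquitin ligase of the gut, departed by 0.36 (adjusted p = 0.00412), with 158, 153 and 161 CPM at the high dose and 143, 133 and 133 CPM at the low dose of Yijung-tang (0.21, adjusted p = 0.258), -0.29 with aconite and -0.34 with citrus peel. Without aconite in the mean, TUBB alone of the 9 was called, and the departures of MT-RNR1 and MT-RNR2 were -0.09 and -0.01. Groups of 3 libraries are too small for a check of single far values.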

How the results depend on the processing

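Over 53 other settings, 39 results on single genes kept their direction in all 989 values, 228 of which lost and 40 of which gained a call. With RLE size factors the counts were 17, 3, 0, 0 and 9 for the 5 comparisons, in the order high against low, high against medium, medium against low, the difference from Banhasasim-tang and that from the 5 other extracts. Without a filter on low counts they were 180, 106, 50, 169 and 122, which includes genes of very few reads. With the compared groups alone, high against low gave 49 and high against medium 7. These 2 counts were 29 and 10 with the 9 Yijung-tang libraries, and 4 and 1 with the 18 libraries of set 7. With related or overlapping genes summed they were 6 and 1. Without 4 libraries far from their groups (aconite high 2, Banhasasim-tang high 2, vehicle 1 and bupleurum medium 2), the counts were 114, 21 and 66 for high against low, high against medium and the difference from other extracts. Without aconite in the mean the last was 1. DESeq2 gave 31, 8, 3 and 24, and 0 for medium against low. The fits with set 7 alone, summed genes, 4 libraries left out and aconite left out were added after seeing the data. Leaving out libraries gave 0 to 33 for high against low, 0 to 21 for high against medium, 0 to 0 for medium against low, 0 to 4 for the difference from Banhasasim-tang and 2 to 24 for that from other extracts. Dropping replicate 1 or 3 of every group, which leaves 2 libraries a group, gave 0 for high against low, TUBB included (highest adjusted p = 0.25). The difference from other extracts was 5 without Yijung-tang high 1, 20 without high 2, 2 and 4 without low 2 and 3, 16 and 24 without aconite high 1 and 2, and 15 without Banhasasim-tang high 3. The difference from Banhasasim-tang was 4 without Yijung-tang high 2, and 3 and 1 without Banhasasim-tang high 1 and 3. The cause was not tested.

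Same-numbered high and low libraries had correlations of deviations of 0.254, 0.057 and 0.176, and each library correlated best with its own number. The main fit did not take the numbers as pairs, and whether they mark a shared effect was not tested. With a replicate block within library set the counts were 20, 4, 0, 0 and 10, and 14 of the 17 calls of high against low were shared. TUBA1C (adjusted p = 0.0503), YBX1P10 (0.0526) and ENSG00000279018 (0.0513) were lost, and HMOX1 (0.0369), EPHX1 (0.0297) and EXOC4 (0.0354) were among those gained.

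CYP1A1 and TCEAL3, below 2 CPM in each compared library, had an SE of 0.47 and 0.31, and the part of depth in this was not tested.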
